A study of Homo sapiens with 29 samples.

Results

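The genes of cholesterol and fatty acid synthesis that are driven by the sterol regulatory element-binding proteins (SREBPs) were followed in knockdown and compound-treated lung cancer cells. The 32 members were taken from a list of known enzymes and regulators, and each of the 32 was found among the 23710 gene symbols of the deposited expression table (SC5D under an older symbol). They comprise 18 genes of the sterol branch, 8 genes of the fatty acid branch, and 6 genes that regulate the pathway or carry sterols.

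Cholesterol is built from acetyl-CoA through mevalonate, farnesyl diphosphate, squalene and lanosterol, and the same acetyl-CoA feeds the synthesis, elongation and desaturation of fatty acids. The SREBPs, encoded by SREBF1 and SREBF2, are made as membrane proteins of the endoplasmic reticulum. When sterols are scarce, SCAP escorts them to the Golgi, where proteases release the part that enters the nucleus and binds promoters; when sterols are plentiful, the INSIG proteins hold SCAP back. SREBF2 is best known for the sterol genes and SREBF1 for the fatty acid genes.

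RNA sequencing of polyadenylated RNA covered 27 libraries in 9 groups of 3. H2122 and H460 are established human non-small cell lung cancer lines with KEAP1 mutations, so the transcription factor NRF2 (gene NFE2L2) escapes its usual degradation. H2122 cells received a short hairpin RNA against NRF2 (shNRF2) or against GFP as the control (shGFP) for 24 h. H460 cells received shNRF2, a hairpin against the nuclear receptor NR0B1 (shNR0B1), one against the transcriptional coregulator SNW1 (shSNW1), or shGFP, for 72 h. In a separate set, H460 cells were exposed to BPK29 or BPK9 at 30 µM, or to DMSO as the solvent, for 12 h. The labels do not tell hairpins against 1 target apart, nor how replicates were made, so p-values rest on how much single libraries vary, possibly for technical reasons only. Every hairpin group has passed through the introduction of a hairpin, and line and time differ together between H2122 and H460.

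Promoters are shown first. The rule that chose the members did not read promoter sequence. The list is of genes known to be driven by SREBPs, though, so its motif shares are not independent of that choice. The RefSeq promoter table (GRCh38.p14) held 28 of the 32 members, all but ACAT2, FDFT1, SQLE and FASN. SREBPs usually bind together with the factor NF-Y, whose box reads CCAAT. The 250 bases before the annotated start are printed for a few members, picked with the results known. Among the 28, SREBF2 was the only member with a match of TCACNCCAC. FDPS and MSMO1 are sterol genes that fell in each of the 4 knockdowns, and TM7SF2 is a sterol gene that rose after NRF2 knockdown. All are on the + strand, and capitals mark TCACNCCAC (a sterol regulatory element) and CCAAT or its reverse complement ATTGG.
SREBF2 (chr22:41832855-41833104): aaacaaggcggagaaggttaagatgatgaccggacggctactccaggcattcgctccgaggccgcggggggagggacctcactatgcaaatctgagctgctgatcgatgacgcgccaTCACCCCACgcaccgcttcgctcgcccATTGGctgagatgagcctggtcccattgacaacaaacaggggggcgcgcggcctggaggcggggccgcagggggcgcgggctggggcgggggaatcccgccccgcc
FDPS (chr1:155308616-155308865): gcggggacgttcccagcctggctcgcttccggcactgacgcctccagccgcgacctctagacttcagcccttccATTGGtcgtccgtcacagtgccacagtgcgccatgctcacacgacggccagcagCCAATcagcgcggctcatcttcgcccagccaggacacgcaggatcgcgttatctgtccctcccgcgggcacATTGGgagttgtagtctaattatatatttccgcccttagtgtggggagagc
MSMO1 (chr4:165327419-165327668): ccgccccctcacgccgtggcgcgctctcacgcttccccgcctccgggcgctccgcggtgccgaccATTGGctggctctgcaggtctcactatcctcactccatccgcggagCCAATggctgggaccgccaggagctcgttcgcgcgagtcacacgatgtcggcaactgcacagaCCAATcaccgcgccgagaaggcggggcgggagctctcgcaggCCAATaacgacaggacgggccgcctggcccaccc
TM7SF2 (chr11:65111622-65111871): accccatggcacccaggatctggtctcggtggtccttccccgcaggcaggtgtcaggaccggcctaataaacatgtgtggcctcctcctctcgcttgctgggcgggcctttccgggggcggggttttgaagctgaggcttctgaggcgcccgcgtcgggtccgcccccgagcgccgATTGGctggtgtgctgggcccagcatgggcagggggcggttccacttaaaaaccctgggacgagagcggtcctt
In the window of 250 bases before to 50 after each annotated start, read on both strands, CCAAT was present in 21 of 28 members (75%). Of 8737 genes tested in H460, 43.7% had it. A gene counted if any of its annotated promoters matched, and genes with several promoters, such as IDI1 and ACACA, have more chances to match. The sterol branch had it in 13 of 15 genes, the fatty acid branch in 5 of 7 and the regulators in 3 of 6. FDPS held 3 copies and MSMO1 4 copies in the printed stretch, and TM7SF2 held 1. The Sp1 box GGGCGG was present in 27 of 28 members, against 78.2% of the tested genes. TCACNCCAC matched in SREBF2 and in no other member, against 1.5% of the tested genes. Other forms of the sterol regulatory element were not searched, so members without this match cannot be said to lack the element. The match in SREBF2 overlaps a match of TGANNNNGC on the other strand. TGANNNNGC, the core of the antioxidant response element that NRF2 binds, matched in 18 of 28 members (64.3%), against 51.0% of the tested genes. By branch it matched in 10 of 15 sterol genes, 2 of 7 fatty acid genes (28.6%) and 6 of 6 regulators. The E-box CACGTG matched in 4 of 28 (14.3%), against 12.9%. These matches describe letters in a short window and say nothing of binding.

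Depth was recovered from the steps of the values: the libraries held 16705879 to 24607395 reads on genes in the knockdown set and 19077406 to 24824335 in the compound set. Single members held between 56 reads (TM7SF2) and 40237 reads (SCD) in a knockdown library. The targeted genes were lower in the groups that carried their hairpins. NFE2L2 changed by -1.11 ± 0.0297 (log2, SE) in H2122 shNRF2 cells and by -0.67 ± 0.0379 in H460 shNRF2 cells, NR0B1 by -1.34 ± 0.0414 in shNR0B1 cells, and SNW1 by -0.65 ± 0.0428 in shSNW1 cells. NR0B1 also fell in shNRF2 cells (-3.32 in H2122 and -2.27 in H460). Markers of hepatocytes, which make much cholesterol, summed to at most 0.3438 FPKM in any knockdown library. Epithelial markers summed to 3884 to 4012 FPKM in H2122 shNRF2 libraries, against 2566 to 2580 FPKM in H2122 shGFP libraries. In H460 they summed to 2058 to 2170 FPKM in shNRF2, 1198 to 1223 FPKM in shNR0B1 and 1884 to 1943 FPKM in shSNW1 libraries, against 1972 to 2249 FPKM in shGFP libraries. The epithelial cadherin CDH1 was under 0.1 FPKM in all 4 H460 groups. Immune markers summed to 105.5 to 108.5 FPKM in H2122 shNRF2 libraries, against 46.19 to 47.48 FPKM in H2122 shGFP libraries, with PTPRC and CD3E under 0.1 FPKM in both. In H460 they summed to 28.42 to 38.55 FPKM over all 4 groups, with PTPRC, LYZ and CD3E under 0.1 FPKM in each. The 6 fibroblast and endothelial markers summed to 13.93 to 14.55 FPKM in H2122 shNRF2 libraries, against 9.426 to 10.4 FPKM in H2122 shGFP libraries. In H460 they summed to 13.87 to 14.89 FPKM in shNRF2, 15.45 to 16.64 FPKM in shNR0B1 and 5.98 to 6.393 FPKM in shSNW1 libraries, against 7.165 to 7.897 FPKM in shGFP libraries, with COL1A2 and VWF under 0.1 FPKM in all groups of both lines. The part of these marker differences in the results was not tested.

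The sterol branch was lower in most of its genes after each knockdown in H460, whereas the fatty acid branch was lower after NRF2 knockdown, mixed after NR0B1 knockdown and lower in 5 of 8 genes after SNW1 knockdown. Calls are at a Benjamini-Hochberg adjusted p under 0.05 over all genes tested, and fold changes are on the log2(FPKM + 1) scale. In H460 shNRF2 against shGFP cells, 14 of 18 sterol genes fell and 2 rose, and 6 of 8 fatty acid genes fell and 1 rose, where 39% of 11938 genes fell and 40.9% rose. At a fold of at least 1.5 as well, 10 sterol genes and 3 fatty acid genes were lower, against 14.9% of all genes. In shNR0B1 against shGFP cells, 14 of 18 sterol genes fell and 2 rose, and 2 of 8 fatty acid genes fell and 3 rose, where 36.8% of genes fell and 33.1% rose. Past 1.5 fold, 6 sterol genes were lower (background 7.15%). In shSNW1 against shGFP cells, 15 of 18 sterol genes fell and 1 rose, and 5 of 8 fatty acid genes fell and 1 rose, where 36.4% of genes fell and 30.8% rose. Past 1.5 fold, 5 sterol genes and 2 fatty acid genes were lower (background 6.88%). In H2122 shNRF2 against shGFP cells, 10 of 18 sterol genes fell and 5 rose, and 6 of 8 fatty acid genes fell and 1 rose, where 38.5% of 11710 genes fell and 48.8% rose. Of the 6 regulators and carriers, 4 fell and 1 rose in H460 shNRF2, 1 fell and 3 rose in shNR0B1, 5 fell in shSNW1, and 2 fell and 4 rose in H2122 shNRF2 cells. In shNR0B1 cells the calls of PMVK, ACLY and SREBF2, and in shSNW1 cells those of TM7SF2 and STARD4, were each lost without at least 2 of the 6 single libraries. In bulk libraries, fewer cells with a transcript and less of it in each cell cannot be told apart.

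Branch medians stood beside these counts. Sterol genes had a median log2 fold change of -0.64 after NRF2, -0.55 after NR0B1 and -0.40 after SNW1 knockdown in H460, and of -0.22 after NRF2 knockdown in H2122. Fatty acid genes had medians of -0.44, 0.07 and -0.18 in the same H460 comparisons and of -0.63 in H2122. Over all genes tested, the medians were 0.01, -0.02, -0.03 and 0.09. The 3 H460 comparisons share their shGFP libraries. Rescaling the libraries to a common total moved the median of all genes by 0.13 in H2122 and by 0.11 in the NR0B1 comparison, and the share of higher calls to 63.4% in place of 55.9% for H2122, to 63.4% in place of 47.3% for NR0B1 and to 58.7% in place of 45.8% for SNW1. The branch medians kept their sign under it in these 4 comparisons, and the sterol calls of H2122 then became 8 higher and 9 lower.

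**Figure D1:**
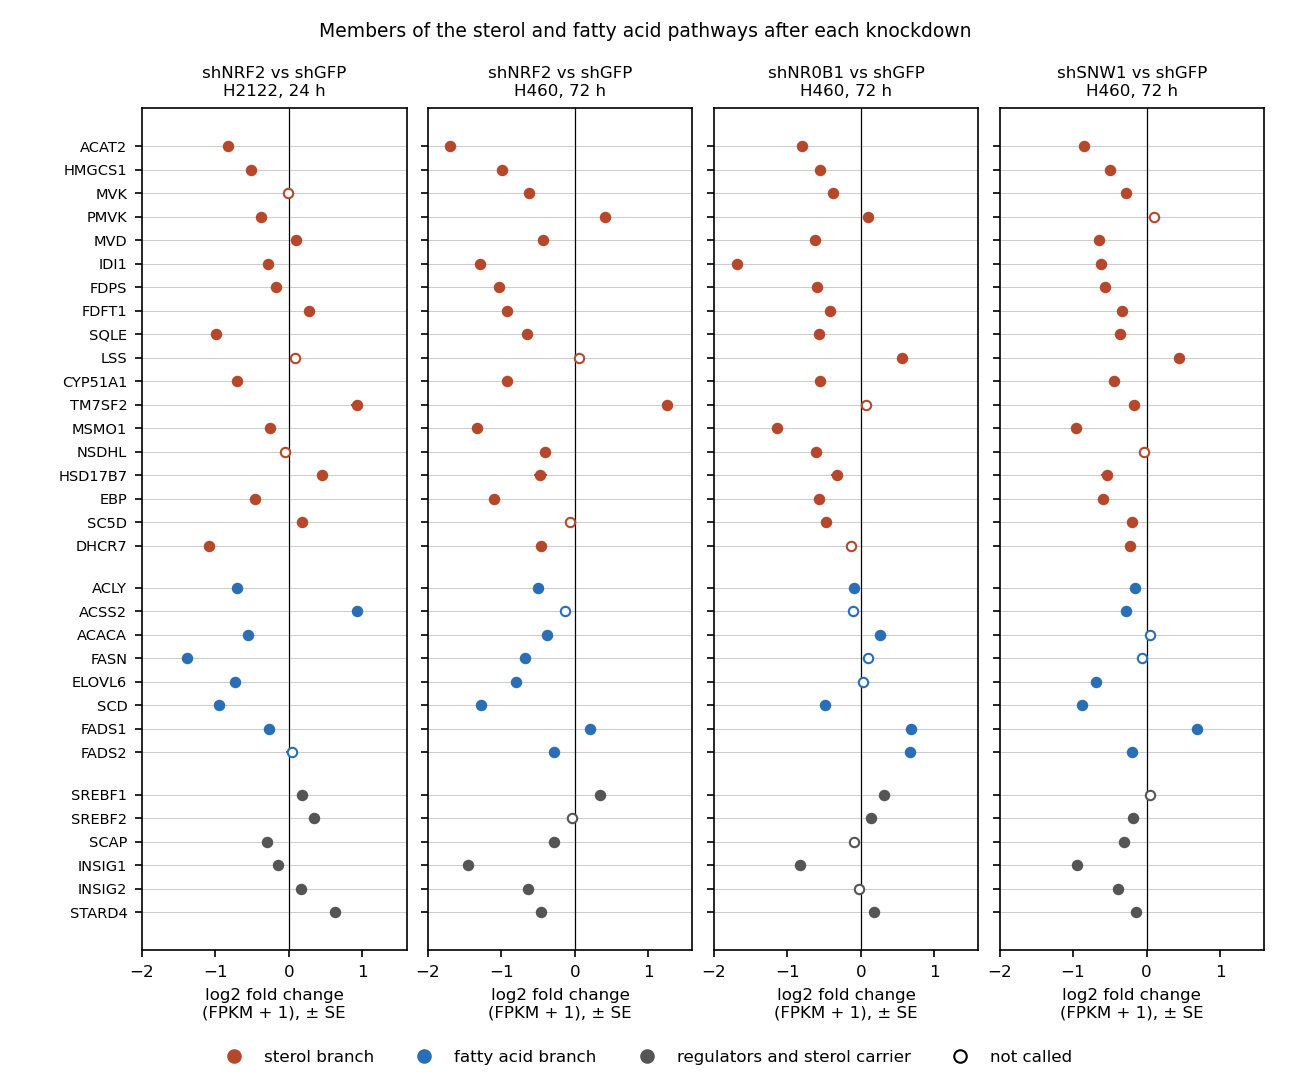
Log2 fold change on the log2(FPKM + 1) scale (x axis) of each member (y axis) in the 4 knockdowns against shGFP, with SE bars; filled points passed an adjusted p under 0.05, open points did not. The sterol genes of H460 lie mostly left of 0, with TM7SF2 at 1.25 and ACAT2 at -1.70 after NRF2 knockdown at the extremes, while the fatty acid genes spread around 0 in shNR0B1 cells.

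The 7 genes that lead to farnesyl diphosphate include ACAT2, the cytosolic thiolase that joins acetyl-CoA units. ACAT2 was at 18.8, 18.6 and 18.9 FPKM in H2122 shNRF2 libraries, against 33.4, 33.1 and 36.1 FPKM in H2122 shGFP libraries. It was at 14.3, 15.6 and 15.5 FPKM in H460 shNRF2 libraries, 31.3, 27.7 and 28.9 FPKM in shNR0B1 libraries and 27.7, 28.7 and 28.1 FPKM in shSNW1 libraries, against 53.2, 49.6 and 51.7 FPKM in H460 shGFP libraries. Each knockdown group lay below its control without overlap. The log2 fold change was -0.83 ± 0.036 (SE, adjusted p = 1.55e-08) in H2122 and -1.70 ± 0.0476 (SE, adjusted p = 1.23e-12) for shNRF2, -0.80 ± 0.0476 for shNR0B1 and -0.85 ± 0.0476 for shSNW1 in H460. ACAT2 shares 615 bases of its locus with TCP1, a chaperonin subunit on the other strand. Reads that lie within those shared bases cannot be told apart without strand. TCP1 changed by -1.07 and -0.95 after NRF2 knockdown in H2122 and H460, and by -0.56 in shNR0B1 cells. In shSNW1 cells TCP1 had -0.06 (adjusted p = 0.14). ACAT2 also shares 237 bases with SOD2, a mitochondrial superoxide dismutase. SOD2 changed by -0.54 and -1.08 after NRF2 knockdown in H2122 and H460, by -0.41 in shNR0B1 cells and by -0.28 in shSNW1 cells.

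HMGCS1, which makes HMG-CoA, was at 8.12, 8.55 and 8.57 FPKM in H460 shNRF2 libraries, 12.4, 11.3 and 11.6 FPKM in shNR0B1 libraries and 11.8, 12.7 and 12.3 FPKM in shSNW1 libraries, against 18.5, 17.4 and 17.3 FPKM in H460 shGFP libraries. It fell by 0.99 on the log2 scale in shNRF2, by 0.56 in shNR0B1 and by 0.50 in shSNW1 cells, and by 0.52 in H2122 shNRF2 cells. Of the kinases and the decarboxylase that follow, MVK fell by 0.62, 0.38 and 0.28 in the H460 shNRF2, shNR0B1 and shSNW1 cells and did not pass the test in H2122 (-0.01, adjusted p = 0.761). PMVK went the other way in H460 shNRF2 cells, at 57.7, 60.1 and 61.3 FPKM against 44.5, 43.6 and 46.5 FPKM in H460 shGFP libraries (0.40 ± 0.0427 SE, adjusted p = 8.7e-07). In H2122 it was lower in shNRF2 cells (-0.38 ± 0.0278 SE, adjusted p = 6.38e-07). MVD fell by 0.43, 0.62 and 0.65 in H460 shNRF2, shNR0B1 and shSNW1 cells.

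IDI1, the isomerase that converts isopentenyl diphosphate, had the largest fall of any member in shNR0B1 cells. IDI1 was at 27.4, 28.9 and 26.3 FPKM in H460 shNRF2 libraries, 23.0, 19.3 and 20.3 FPKM in shNR0B1 libraries and 42.2, 44.5 and 46.1 FPKM in shSNW1 libraries, against 72.8, 65.3 and 68.1 FPKM in H460 shGFP libraries. The shNR0B1 libraries were the lowest of the 4 groups and the shGFP libraries the highest, with no overlap between groups. The changes against shGFP were -1.29 ± 0.0608 (SE, adjusted p = 1.74e-10) for shNRF2, -1.68 ± 0.0608 (SE, adjusted p = 6.8e-11) for shNR0B1 and -0.62 ± 0.0608 (SE, adjusted p = 8.83e-07) for shSNW1. In H2122, IDI1 was at 27.9, 27.7 and 28.5 FPKM in H2122 shNRF2 libraries, against 35, 35.2 and 33.3 FPKM in H2122 shGFP libraries, a change of -0.29 ± 0.0298. FDPS, which makes farnesyl diphosphate and whose promoter is printed above, was at 77.7, 78.1 and 78.3 FPKM in H460 shNRF2 libraries, 109.7, 103 and 105 FPKM in shNR0B1 libraries and 105, 109.8 and 108 FPKM in shSNW1 libraries, against 157, 156 and 167 FPKM in H460 shGFP libraries. It fell by 1.03 in shNRF2, 0.59 in shNR0B1 and 0.57 in shSNW1 cells, and changed by -0.17 ± 0.0208 (SE) in H2122 shNRF2 cells. IDI1 and FDPS share 5050 and 3812 bases of their loci with the noncoding RNAs IDI2-AS1 and RUSC1-AS1. MVK, STARD4 and SREBF1 share 233, 310 and 120 bases with MMAB, STARD4-AS1 and RAI1. IDI1 also shares 320 bases with WDR37, and ACACA shares 16724 bases with C17orf78. MMAB changed by -0.6 in H2122 shNRF2, -0.775 in H460 shNRF2, -0.456 in shNR0B1 and -0.542 in shSNW1 cells. WDR37 changed by 0.288, 0.309 and 0.203 in H2122 shNRF2, H460 shNRF2 and shNR0B1 cells. In shSNW1 cells WDR37 had 0.152 (adjusted p = 0.0654). FDPS and HSD17B7 also have closely similar pseudogenes, with which reads may be split.

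From squalene onward the changes split between genes. FDFT1, squalene synthase, was at 34.1, 34.0 and 35.8 FPKM in H460 shNRF2 libraries, 51.6, 47.9 and 49.1 FPKM in shNR0B1 libraries and 51.9, 53.0 and 52.7 FPKM in shSNW1 libraries, against 65.8, 65.2 and 68.4 FPKM in H460 shGFP libraries. It fell in each of these H460 groups, by 0.92, 0.42 and 0.33. In H2122 it was at 75.7, 75.6 and 71.9 FPKM in H2122 shNRF2 libraries, against 60.7, 61.8 and 61.9 FPKM in H2122 shGFP libraries, and there it rose (0.27 ± 0.0267 SE, adjusted p = 6.6e-06). SQLE, the squalene epoxidase, was at 7.67, 7.93 and 8.0 FPKM in H2122 shNRF2 libraries, against 16.9, 16.6 and 16.4 FPKM in H2122 shGFP libraries. It fell by 0.99 there and by 0.66, 0.56 and 0.36 in H460 shNRF2, shNR0B1 and shSNW1 cells. LSS, which closes the lanosterol ring, was at 5.74, 5.31 and 5.25 FPKM in H460 shNRF2 libraries, 8.36, 7.46 and 8.53 FPKM in shNR0B1 libraries and 7.39, 7.26 and 7.57 FPKM in shSNW1 libraries, against 4.81, 4.95 and 5.86 FPKM in H460 shGFP libraries. It rose in shNR0B1 (0.56 ± 0.0652 SE, adjusted p = 4.71e-06) and shSNW1 cells (0.44 ± 0.0652 SE, adjusted p = 4.45e-05), whose libraries lay above those of shGFP; the shNRF2 values overlapped the shGFP values (0.06, adjusted p = 0.447).

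Among the genes that trim and reshape the sterol rings, CYP51A1, the lanosterol demethylase, fell in each of the 4 comparisons: by 0.71 in H2122 shNRF2, 0.92 in H460 shNRF2, 0.55 in shNR0B1 and 0.44 in shSNW1 cells. MSMO1, a methyl sterol oxidase with 4 CCAAT boxes in the promoter shown above, was at 16.1, 15.1 and 15.8 FPKM in H460 shNRF2 libraries, 19.7, 17.5 and 16.9 FPKM in shNR0B1 libraries and 21.3, 20.3 and 20.2 FPKM in shSNW1 libraries, against 42.7, 40.9 and 39.3 FPKM in H460 shGFP libraries. It fell by 1.33 (SE 0.0525), 1.14 and 0.96, and by 0.26 in H2122 shNRF2 cells. EBP, the sterol isomerase, fell by 1.09, 0.57 and 0.60 in the H460 shNRF2, shNR0B1 and shSNW1 cells and by 0.46 in H2122 shNRF2 cells. DHCR7, a reductase of the last steps, was at 8.48, 8.40 and 8.46 FPKM in H2122 shNRF2 libraries, against 19.4, 18.1 and 19.7 FPKM in H2122 shGFP libraries. That fall (-1.09 ± 0.0389 SE, adjusted p = 4.16e-09) was the largest of the sterol branch in H2122, while in H460 DHCR7 changed by -0.46 ± 0.0631 in shNRF2 and by -0.22 ± 0.0631 in shSNW1 cells.

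TM7SF2, the sterol C14 reductase, stood apart from the branch. It was at 6.01, 5.08 and 5.54 FPKM in H2122 shNRF2 libraries, against 2.45, 2.12 and 2.78 FPKM in H2122 shGFP libraries. In H460 it was at 7.91, 7.0 and 7.34 FPKM in H460 shNRF2 libraries, 2.69, 2.81 and 2.61 FPKM in shNR0B1 libraries and 2.10, 2.33 and 2.00 FPKM in shSNW1 libraries, against 2.81, 2.44 and 2.35 FPKM in H460 shGFP libraries. The shNRF2 libraries of both lines lay above every other group, with log2 fold changes of 0.92 ± 0.0797 (SE, adjusted p = 2.44e-06) in H2122 and 1.25 ± 0.0635 (SE, adjusted p = 3.6e-10) in H460. In shNR0B1 cells it did not pass the test (0.07, adjusted p = 0.338). In shSNW1 cells it was lower (-0.17 ± 0.0635 SE, adjusted p = 0.0315), a call lost without shGFP replicate 1, shSNW1 replicate 1 or shSNW1 replicate 3 (-0.16 to -0.11). Values near 2 FPKM are shrunk by the pseudocount of 1.

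NSDHL, a sterol dehydrogenase, fell by 0.40 in shNRF2 and 0.61 in shNR0B1 cells of H460 and had -0.03 in shSNW1 cells (adjusted p = 0.55). HSD17B7, which reduces the ketone left by NSDHL, rose in H2122 shNRF2 cells (0.45 ± 0.0642 SE, adjusted p = 0.000108) and fell in H460 by 0.47, 0.33 and 0.54 after NRF2, NR0B1 and SNW1 knockdown. SC5D, the desaturase before DHCR7, rose by 0.18 in H2122 shNRF2 cells, had -0.07 in H460 shNRF2 cells (adjusted p = 0.165), and fell by 0.47 in shNR0B1 and 0.19 in shSNW1 cells.

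**Figure D2:**
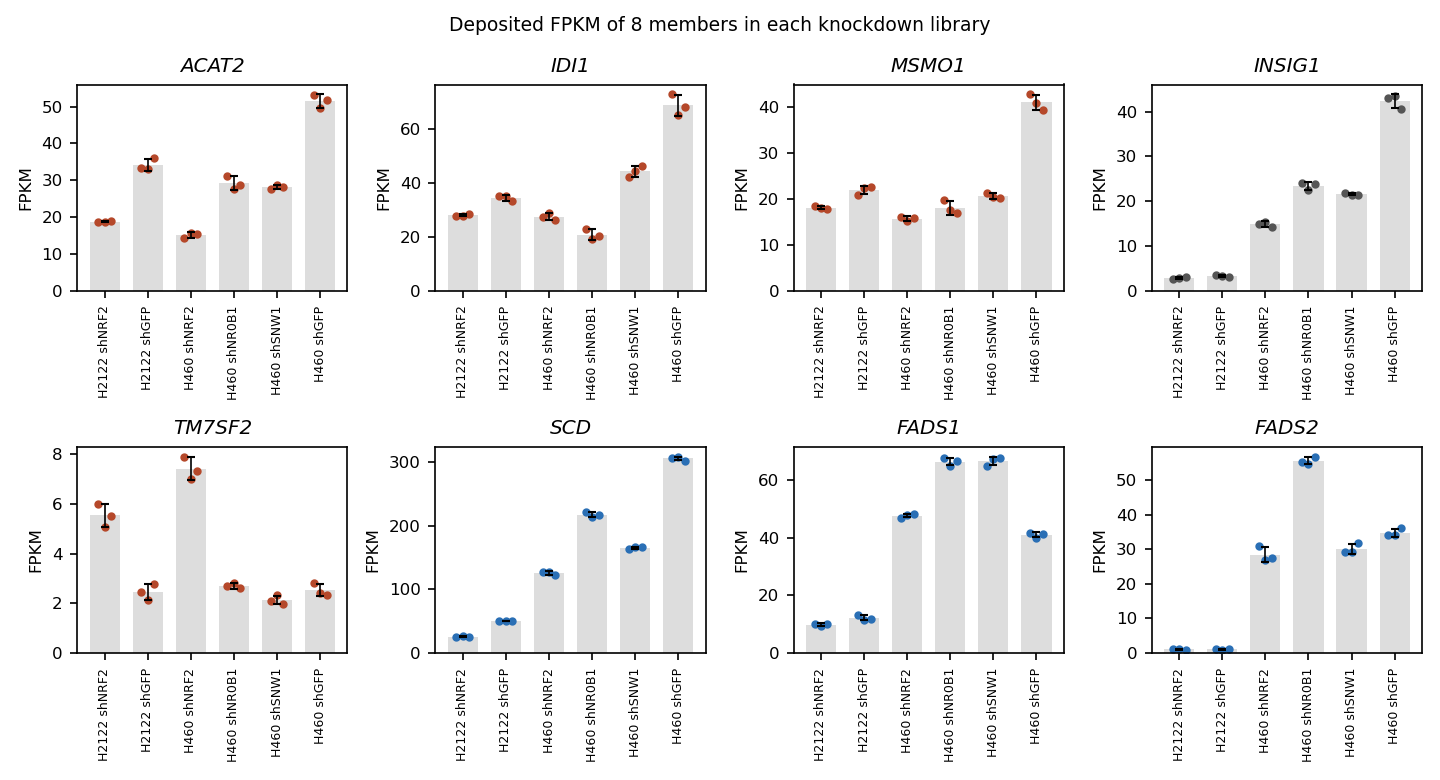
Deposited FPKM (y axis) of 8 members in each of the 18 knockdown libraries (points), with bars at the group mean and error bars of 1 SD (n = 3), by group (x axis). TM7SF2 is high in the shNRF2 groups of both lines, FADS1 in shNR0B1 and shSNW1 cells, and FADS2 in shNR0B1 cells, while INSIG1 and FADS2 are low throughout H2122.

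In the fatty acid branch, the 5 genes ACLY, ACACA, FASN, SCD and ELOVL6 fell after NRF2 knockdown in both lines. FASN, the fatty acid synthase, was at 31.1, 32.8 and 31.1 FPKM in H2122 shNRF2 libraries, against 80.5, 84.9 and 88.3 FPKM in H2122 shGFP libraries. It was at 39.5, 36.1 and 37.5 FPKM in H460 shNRF2 libraries, 64.1, 64.2 and 68.5 FPKM in shNR0B1 libraries and 61.2, 54.2 and 59.5 FPKM in shSNW1 libraries, against 57.2, 59.3 and 67.1 FPKM in H460 shGFP libraries. The shNRF2 libraries lay below shGFP in both lines, with log2 fold changes of -1.39 ± 0.0372 (SE, adjusted p = 6.43e-10) in H2122 and -0.68 ± 0.0601 (SE, adjusted p = 1.27e-07) in H460, whereas shNR0B1 and shSNW1 values overlapped shGFP. FASN had the largest fall of all members in H2122. ACLY, which makes cytosolic acetyl-CoA from citrate, fell by 0.71 in H2122 and 0.50 in H460 shNRF2 cells, and by 0.15 in shSNW1 cells. ACACA, the acetyl-CoA carboxylase, fell by 0.56 and 0.37 in the shNRF2 cells of H2122 and H460 and rose by 0.26 in shNR0B1 cells (adjusted p = 0.000107).

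SCD, the stearoyl-CoA desaturase and the most abundant member of H460 per length, fell in each of the 4 comparisons. SCD was at 128, 127 and 122 FPKM in H460 shNRF2 libraries, 221, 213 and 217 FPKM in shNR0B1 libraries and 163, 167 and 166 FPKM in shSNW1 libraries, against 306, 308 and 302 FPKM in H460 shGFP libraries. The groups did not overlap and stood in the order shNRF2, shSNW1, shNR0B1 and shGFP, low to high. Changes were -1.28 ± 0.0278 (SE, adjusted p = 1.99e-13) for shNRF2, -0.49 ± 0.0278 for shNR0B1 and -0.88 ± 0.0278 for shSNW1. In H2122, SCD was at 25.8, 26.3 and 25.1 FPKM in H2122 shNRF2 libraries, against 50.9, 50.1 and 50.6 FPKM in H2122 shGFP libraries, a change of -0.95 ± 0.0263. ELOVL6, the elongase of long-chain fatty acids, was at 11.3, 11.5 and 11.4 FPKM in H460 shNRF2 libraries, 20.1, 21.5 and 22.0 FPKM in shNR0B1 libraries and 12.5, 12.7 and 12.0 FPKM in shSNW1 libraries, against 20.6, 21.2 and 20.2 FPKM in H460 shGFP libraries. It fell by 0.80 in shNRF2 and 0.69 in shSNW1 cells, while shNR0B1 values overlapped shGFP (0.04, adjusted p = 0.447); in H2122 shNRF2 cells it fell by 0.74.

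The desaturases of polyunsaturated fatty acids, FADS1 and FADS2, both rose in shNR0B1 cells. In the other groups their changes followed the genes above only in part. FADS1 was at 47.0, 48.0 and 48.1 FPKM in H460 shNRF2 libraries, 67.6, 65.1 and 66.7 FPKM in shNR0B1 libraries and 65.1, 67.5 and 67.6 FPKM in shSNW1 libraries, against 41.8, 40.1 and 41.4 FPKM in H460 shGFP libraries. It rose in each of these groups, by 0.21 ± 0.0307, 0.68 ± 0.0307 and 0.69 ± 0.0307, and fell in H2122 shNRF2 cells (-0.27 ± 0.0526 SE, adjusted p = 0.000788). FADS2 was at 30.9, 26.9 and 27.6 FPKM in H460 shNRF2 libraries, 55.2, 54.7 and 56.7 FPKM in shNR0B1 libraries and 29.3, 29.3 and 31.8 FPKM in shSNW1 libraries, against 34.1, 34.0 and 36.0 FPKM in H460 shGFP libraries. It rose in shNR0B1 cells (0.66 ± 0.0506 SE, adjusted p = 6.91e-08) and fell in shNRF2 (-0.28 ± 0.0506 SE, adjusted p = 0.000169) and shSNW1 cells (-0.20 ± 0.0506 SE, adjusted p = 0.00348). In H2122, FADS2 was near 1 FPKM in both groups. FADS1 and FADS2 share 801 bases of their locus. ACSS2, which makes acetyl-CoA from acetate, was at 9.89, 9.77 and 9.53 FPKM in H2122 shNRF2 libraries, against 4.5, 4.63 and 4.84 FPKM in H2122 shGFP libraries, and it rose there (0.92 ± 0.0418 SE, adjusted p = 2.05e-08); in H460 it fell by 0.28 in shSNW1 cells and had -0.13 in shNRF2 (adjusted p = 0.0598) and -0.10 in shNR0B1 cells (adjusted p = 0.155).

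Among the regulators, INSIG1, itself an SREBP target, fell with the sterol genes in H460. INSIG1 was at 15.0, 15.4 and 14.2 FPKM in H460 shNRF2 libraries, 24.0, 22.4 and 23.8 FPKM in shNR0B1 libraries and 21.8, 21.4 and 21.3 FPKM in shSNW1 libraries, against 42.9, 43.4 and 40.6 FPKM in H460 shGFP libraries. No group overlapped shGFP, and the changes were -1.45 ± 0.0412 (SE, adjusted p = 1.38e-12) for shNRF2, -0.83 ± 0.0412 (SE, adjusted p = 1.18e-09) for shNR0B1 and -0.94 ± 0.0412 (SE, adjusted p = 4.26e-10) for shSNW1. In H2122 it was at 2.69, 2.91 and 3.01 FPKM in H2122 shNRF2 libraries, against 3.52, 3.31 and 3.01 FPKM in H2122 shGFP libraries; the groups overlapped there and the call (-0.14 ± 0.0614 SE, adjusted p = 0.0498) was lost without shGFP replicate 1 or 2 or shNRF2 replicate 1 or 2 (-0.15 to -0.10). INSIG2, the second INSIG gene, fell by 0.64 in H460 shNRF2 and 0.39 in shSNW1 cells and rose by 0.16 in H2122 shNRF2 cells. STARD4, a carrier of sterols between membranes, was at 6.66, 6.31 and 6.18 FPKM in H2122 shNRF2 libraries, against 3.40, 3.84 and 4.13 FPKM in H2122 shGFP libraries, and rose (0.63 ± 0.0624 SE, adjusted p = 7.12e-06). In H460 it was at 24.7, 25.7 and 25.6 FPKM in H460 shNRF2 libraries, 40.5, 40.1 and 39.5 FPKM in shNR0B1 libraries and 30.8, 32.2 and 32.5 FPKM in shSNW1 libraries, against 37.3, 35.7 and 32.6 FPKM in H460 shGFP libraries. It fell in shNRF2 cells (-0.46 ± 0.0444 SE, adjusted p = 3.62e-07) and rose in shNR0B1 cells (0.18 ± 0.0444 SE, adjusted p = 0.00228).

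The transcripts of the SREBPs themselves changed by at most 0.34 against shGFP. SREBF1 was at 47.0, 44.9 and 44.2 FPKM in H460 shNRF2 libraries, 42.5, 45.3 and 46.4 FPKM in shNR0B1 libraries and 37.9, 34.6 and 37.8 FPKM in shSNW1 libraries, against 34.4, 34.5 and 37.8 FPKM in H460 shGFP libraries. It rose by 0.34 in shNRF2 and 0.32 in shNR0B1 cells of H460 and by 0.17 in H2122 shNRF2 cells, and shSNW1 values overlapped shGFP. SREBF2, whose promoter carries the printed element, rose in H2122 shNRF2 cells (0.34 ± 0.0338 SE, adjusted p = 6.55e-06), fell in shSNW1 cells (-0.19 ± 0.052 SE, adjusted p = 0.00571) and had -0.04 in H460 shNRF2 cells (adjusted p = 0.453). SCAP fell by 0.30 in H2122 shNRF2, 0.28 in H460 shNRF2 and 0.30 in shSNW1 cells.

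Per library, the branches were set beside each other as the mean log2(FPKM + 1) of the 18 sterol genes minus that of the 8 fatty acid genes. This difference was 0.21 to 0.28 in H2122 shNRF2 libraries (mean 0.25 ± 0.0334, SD, n = 3), against -0.0016 to 0.0091 in H2122 shGFP libraries. In H460 it was -0.84 to -0.77 in shNRF2 (mean -0.80 ± 0.0362), -1.33 to -1.25 in shNR0B1 (mean -1.30 ± 0.0469) and -0.90 to -0.85 in shSNW1 libraries (mean -0.87 ± 0.0234), against -0.71 to -0.66 in shGFP libraries (mean -0.69 ± 0.024; SD, n = 3 each). No knockdown group overlapped its control: the sterol branch was lower relative to the fatty acid branch in the 3 H460 knockdowns, by most in shNR0B1 cells, and higher relative to it in H2122 shNRF2 cells. As the median fold change of the sterol genes minus that of the fatty acid genes, the comparisons gave 0.42 in H2122, and -0.20 for shNRF2, -0.62 for shNR0B1 and -0.22 for shSNW1 in H460. With means in place of medians they gave 0.25 in H2122 and -0.11 for shNRF2 in H460. These are descriptions of the lists and carry no test.

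**Figure D3:**
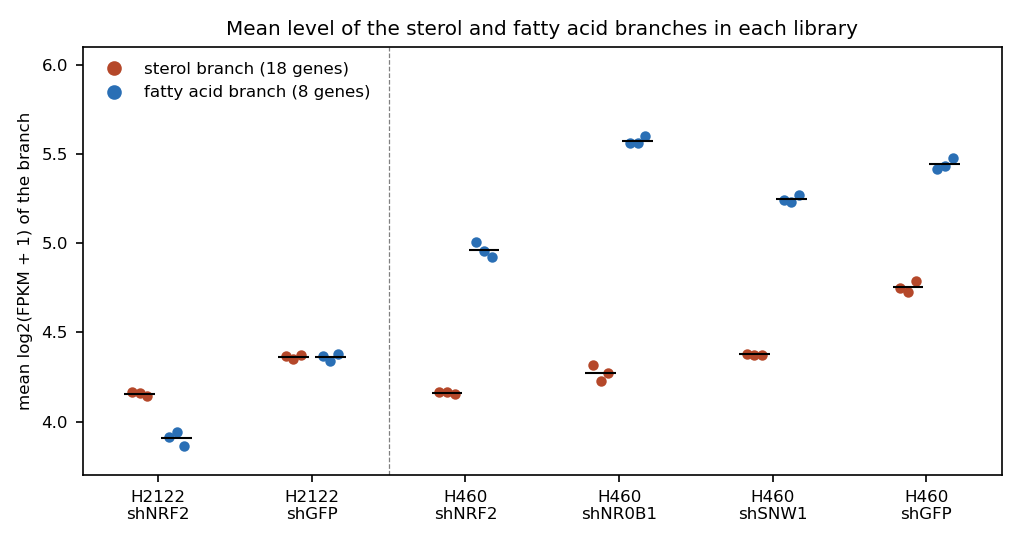
Mean log2(FPKM + 1) over the 18 sterol genes and the 8 fatty acid genes (y axis) in each library (points, with a line at the group mean, n = 3) of the 6 knockdown groups (x axis). The branches are level in H2122 shGFP libraries, the fatty acid branch drops below in H2122 shNRF2 libraries, and in H460 the gap is widest in shNR0B1 libraries, at -1.33 to -1.25.

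The H460 knockdowns were compared with each other directly, since they share controls. In shNR0B1 against shSNW1 cells, 6 of 8 fatty acid genes and the 6 regulators and carriers were higher, where 34.7% of genes were higher and 33.1% lower, and of the sterol genes 2 were higher and 6 lower. FADS2 differed by 0.86 ± 0.0506 (SE, adjusted p = 6.4e-09), ELOVL6 by 0.73 ± 0.04 (SE, adjusted p = 3.55e-09) and SCD by 0.39 ± 0.0278 (SE, adjusted p = 4.16e-08). IDI1 differed the other way (-1.05 ± 0.0608 SE, adjusted p = 5.49e-09), as did NSDHL (-0.58 ± 0.0462 SE, adjusted p = 1.29e-07). ACAT2, HMGCS1, FDPS and EBP did not pass the test in this comparison, with differences between -0.05 and 0.05. The calls of ACSS2 and FASN (lost without shNR0B1 replicate 3 or shSNW1 replicate 2, at 0.12 to 0.17) and of INSIG1, CYP51A1 and HSD17B7 (each lost without at least 4 of the 6 single libraries) were not stable.

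In shNRF2 against shNR0B1 cells, 7 of 8 fatty acid genes were lower and 5 of the 6 regulators and carriers, where 36.7% of genes were lower and 37.8% higher; of the sterol genes 10 were lower and 6 higher. FADS2 differed by -0.94 ± 0.0506 (SE, adjusted p = 9.04e-10), ELOVL6 by -0.84 ± 0.04 (SE, adjusted p = 2.64e-10) and ACAT2 by -0.91 ± 0.0476 (SE, adjusted p = 7.12e-10), while TM7SF2 (1.18 ± 0.0635 SE, adjusted p = 9.02e-10) and IDI1 (0.39 ± 0.0608 SE, adjusted p = 5.63e-05) were higher in shNRF2 cells. In shNRF2 against shSNW1 cells, 13 sterol and 6 fatty acid genes were lower and 4 and 1 were higher, where 39.1% of genes were lower and 39.6% higher. ACAT2 differed by -0.86 ± 0.0476 (SE, adjusted p = 1.06e-09), IDI1 by -0.67 ± 0.0608 (SE, adjusted p = 2.05e-07), FASN by -0.61 ± 0.0601 (SE, adjusted p = 4.2e-07) and TM7SF2 by 1.42 ± 0.0635 (SE, adjusted p = 1.1e-10). The medians of the branches differed by -0.0002 in this comparison, by 0.49 for shNRF2 against shNR0B1 and by -0.23 for shNR0B1 against shSNW1 (-0.43 with means).

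The effect of NRF2 knockdown was then compared between H2122 and H460 by an interaction term, in which line and time (24 h and 72 h) cannot be told apart. The difference of the effects passed the test for 29 of 32 members, against 71.6% of 12798 genes, and was positive for 20 of them (37.4% of all genes) and negative for 9 (34.3%). It was positive for 13 of 18 sterol genes, with a median of 0.50, and for 3 of 8 fatty acid genes, with a median of -0.06; the median over all genes was 0.02. INSIG1 (1.31 ± 0.0744 SE, adjusted p = 6.06e-09), FDFT1 (1.19 ± 0.0448 SE, adjusted p = 1.28e-10) and STARD4 (1.08 ± 0.0842 SE, adjusted p = 1.19e-07) had the largest positive differences, and PMVK (-0.79 ± 0.0477 SE, adjusted p = 1.07e-08) and FASN (-0.71 ± 0.0791 SE, adjusted p = 3.82e-06) the largest negative ones. For 7 of the 32 members the calls in the lines had opposite signs, as they had for 12.8% of 10731 genes tested in both lines: FDFT1, HSD17B7, STARD4, INSIG2 and MVD were higher in H2122 shNRF2 and lower in H460 shNRF2 cells, and PMVK and FADS1 the reverse. MVD in H2122 was a weak case, with 0.10 (adjusted p = 0.048) and -0.0445 after median-ratio scaling, a call lost without shGFP replicate 2 or 3 or any single shNRF2 library (0.07 to 0.10).

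**Figure D4:**
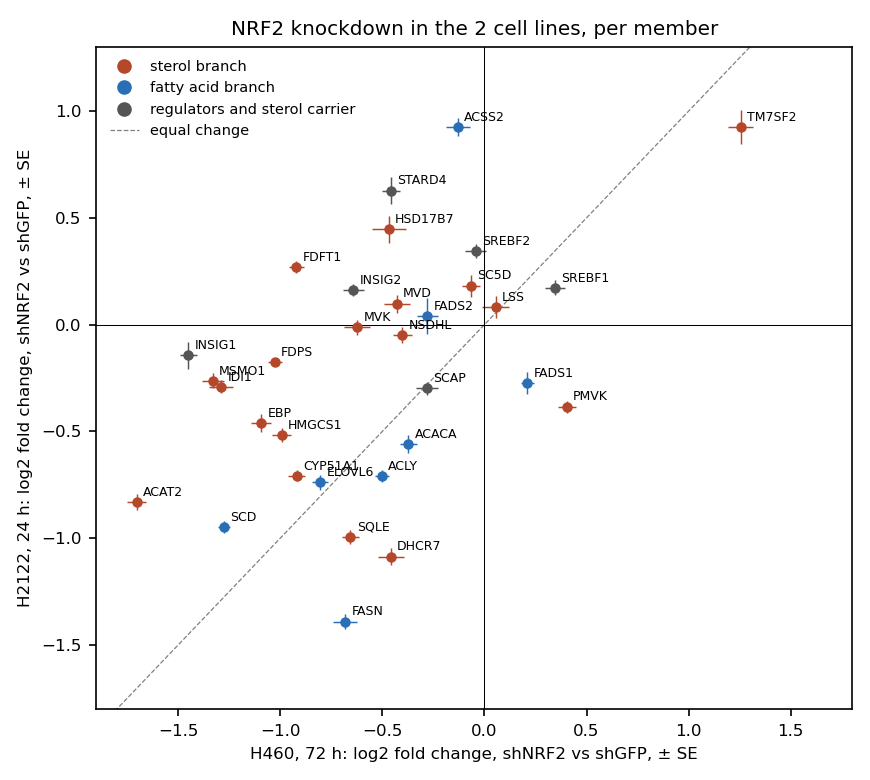
Log2 fold change of each member after NRF2 knockdown in H2122 at 24 h (y axis) against that in H460 at 72 h (x axis), both on the log2(FPKM + 1) scale with SE bars; the dashed line marks equal change. Most sterol genes lie above the line, with a smaller fall or a rise in H2122, while FASN, DHCR7, SQLE and PMVK lie below it.

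Under the control hairpin, the lines themselves held different levels. In H2122 shGFP against H460 shGFP cells, 11 of 18 sterol genes were lower and 2 higher, 5 of 8 fatty acid genes lower and 3 higher, and 4 of 6 regulators and carriers lower, where 41.1% of 12798 genes were lower and 44.4% higher. FADS2 was at 1.18, 0.921 and 1.09 FPKM in H2122 shGFP libraries, against 34.1, 34.0 and 36.0 FPKM in H460 shGFP libraries (-4.11 ± 0.0737 SE, adjusted p = 5.5e-15). INSIG1 was at 3.52, 3.31 and 3.01 FPKM in H2122, against 42.9, 43.4 and 40.6 FPKM in H460 (-3.34 ± 0.0526 SE, adjusted p = 1.44e-15). STARD4 differed by -2.92 ± 0.0595, SCD by -2.57 ± 0.0273, FADS1 by -1.68 ± 0.0452 and ACSS2 by -1.51 ± 0.0594, all lower in H2122. ACACA (0.68 ± 0.0456), ELOVL6 (0.47 ± 0.0342) and FASN (0.46 ± 0.0559) were higher in H2122. The median of the sterol genes was -0.28 and that of the fatty acid genes -0.95, against 0.03 for all genes; rescaling to a common total moved the last by 0.16.

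In the compound set the gene lengths behind the deposited values did not match those of the knockdown set: 17 of 32 members were over 2 fold from the median ratio. The members are therefore given as reads scaled between libraries and as ratios to DMSO, and levels are not compared between genes. Many members were lower by small amounts in BPK29 cells. In BPK29 against DMSO cells, 11 of the 17 sterol genes tested were lower and 1 higher, 4 of 8 fatty acid genes were lower, and of the 6 regulators and carriers 3 were lower and 3 higher, where 29.3% of 11461 genes were lower and 21.1% higher. TM7SF2 was below the minimum level and was not tested. In either direction 22 of the 31 members tested were called in limma, against 50.4% of all genes, and the 1.5-fold rule was passed by none of them, against 2.36% of all genes. Rescaling to a common total gave 7 lower and 2 higher sterol genes, and moved the share of higher calls over all genes to 63.6% in place of 41.9%. Marker genes moved as well. The 3 epithelial markers tested were lower in BPK29 cells, KRT8 and KRT18 by 0.22 each and KRT19 by 0.36, and the reads recovered for the list summed to 60763 to 61491 scaled reads in BPK29 libraries, against 72851 to 73944 in DMSO libraries. Of 3 fibroblast and endothelial markers tested, COL3A1 was lower (-0.74) and COL1A1 (-0.15, adjusted p = 0.0529) and DCN (-0.41, adjusted p = 0.117) did not pass; the reads recovered for the list summed to 1340.5 to 1371 scaled reads in BPK29 libraries, against 2010.2 to 2235 in DMSO libraries, with PECAM1 at 0 in both. Of 2 immune markers tested, CD14 was lower (-0.42) and CD68 had 0.07 (adjusted p = 0.203). The 3 hepatocyte markers were below the minimum level. The part of these marker differences in the members' changes was not tested. In BPK9 cells none of these 8 markers was called in limma, and KRT18, KRT19 and COL3A1 had an unadjusted p under 0.05.

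STARD4 had the largest change, at 856, 907 and 857 scaled reads in BPK29 libraries and 1187, 1233 and 1271 in BPK9 libraries, against 1244, 1279.7 and 1278 in DMSO libraries. All BPK29 values lay below the others, at a ratio to DMSO of 0.689 ± 0.0227 (SD, n = 3) and a log2 fold change of -0.53 ± 0.0325 (SE, adjusted p = 2.19e-06). LSS was at 686, 661 and 633 scaled reads in BPK29 and 1004, 952 and 911 in BPK9 libraries, against 969.8, 949 and 870.4 in DMSO libraries (-0.45 ± 0.0491 SE, adjusted p = 6.26e-05 for BPK29). IDI1 had a ratio of 0.767 ± 0.0232 in BPK29 libraries (-0.37 ± 0.0493 SE, adjusted p = 0.000222), and ACAT2 one of 0.770 ± 0.019 (-0.33 ± 0.0344 SE, adjusted p = 4.63e-05). SCD was at 13107, 12851 and 12833 scaled reads in BPK29 and 15721, 15883 and 15959 in BPK9 libraries, against 15764, 16029 and 16009 in DMSO libraries, without overlap between BPK29 and DMSO (-0.30 ± 0.0207 SE, adjusted p = 4.68e-06). FDPS fell by 0.30, EBP by 0.25, INSIG1 by 0.32 and SREBF1 by 0.32, while SCAP (0.19 ± 0.0335) and INSIG2 (0.19 ± 0.0444) rose. HMGCS1, CYP51A1 and MSMO1 did not pass the test, with differences between -0.02 and 0.04. Calls of MVD, PMVK, SC5D and SQLE, with differences of -0.15 to 0.11, were each lost without at least 3 of the 6 single libraries.

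BPK9 at the same dose and time left no member called in limma. Over all genes 0.00873% were called at the adjusted threshold. Of the 31 members tested, 6 had an unadjusted p under 0.05 (MSMO1, SC5D, FADS1, FADS2, SREBF2 and SCAP, all higher in BPK9). The share of all genes at that unadjusted threshold was not counted, so these 6 cannot be read as more than the background. With limma-voom on recovered reads, 3 members were called higher, MSMO1 (0.18), FADS1 (0.10) and FADS2 (0.17), where 1.18% of 11461 genes were called higher and 0.995% lower. The largest member difference was 0.15 for MSMO1 (adjusted p = 0.176), and the 95% intervals of the members reached from -0.18 to 0.25.

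Between the compounds, BPK29 against BPK9, 11 of 17 sterol genes and 5 of 8 fatty acid genes were lower, where 27.2% of genes were lower and 19.7% higher. STARD4 (-0.49 ± 0.0325 SE, adjusted p = 4.39e-06), LSS (-0.48 ± 0.0491 SE, adjusted p = 5.26e-05), INSIG1 (-0.40 ± 0.0385 SE, adjusted p = 3.75e-05) and FADS2 (-0.38 ± 0.0419 SE, adjusted p = 8.43e-05) differed most. In either direction 20 of 31 were called, against 46.9% of all genes. The 11 members that did not pass had 95% intervals within -0.21 to 0.20. Sterol and fatty acid genes had medians close to each other in BPK29 cells: -0.15 and -0.17 against DMSO, a difference of 0.02 (-0.01 with means), beside a spread of 0.0194 between replicates, and -0.15 and -0.14 against BPK9.

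**Figure D5:**
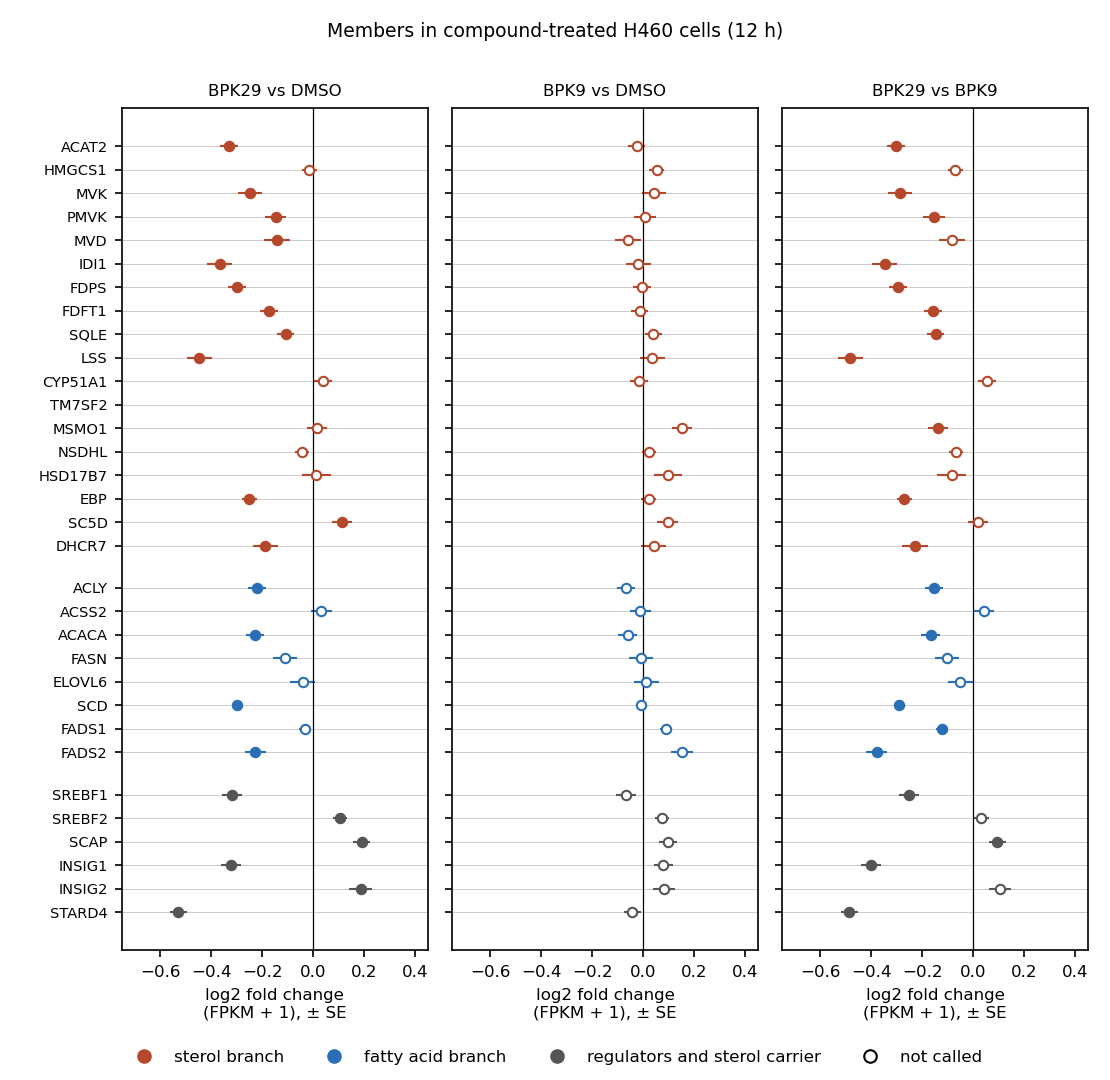
Log2 fold change of each member (x axis, log2(FPKM + 1) scale, SE bars) for BPK29 against DMSO, BPK9 against DMSO and BPK29 against BPK9, in H460 cells at 12 h; filled points passed an adjusted p under 0.05. The falls in BPK29 cells reach -0.53 for STARD4, and no member is called for BPK9 against DMSO.

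Other genes of the pathway, from 5 further lists, were read in the same fits, against the shares of all genes called: 48.8% higher and 38.5% lower in H2122 shNRF2, 40.9% and 39% in H460 shNRF2, 33.1% and 36.8% in shNR0B1, and 30.8% and 36.4% in shSNW1 cells. Of 7 genes of SREBP processing and sterol-regulated degradation, H2122 shNRF2 cells had 3 higher and 2 lower, with ERLIN1 (a membrane scaffold protein) at -0.71. In H460 shNRF2 cells 4 were higher and 1 lower, and the proteases that release the SREBPs, MBTPS1 (0.83 ± 0.0336 SE, adjusted p = 3.83e-11) and MBTPS2 (1.26 ± 0.0359 SE, adjusted p = 1.44e-12), had the largest changes. ERLIN1 was lower by 0.91 in shNR0B1 and 1.04 in shSNW1 cells, where MBTPS2 rose by 0.50 and 0.55. These groups had 1 gene higher and 2 lower, and 1 higher and 3 lower.

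Of 6 genes of the liver X receptors (LXR), which sense oxidised sterols, and their targets, 4 were higher and 2 lower in H2122 shNRF2 cells (of all genes, 48.8% were higher and 38.5% lower), led by the sterol exporters ABCG1 (1.32 ± 0.0381 SE, adjusted p = 9.97e-10) and ABCA1 (0.95 ± 0.0672 SE, adjusted p = 5.61e-07). In H460 shNRF2 cells 3 rose and 3 fell, with ABCG1 at 0.62 and the receptor NR1H3 at -0.51. In shNR0B1 cells 2 of the 6 rose, ABCG1 (0.43) and MYLIP (0.22). In shSNW1 cells 2 rose and 3 fell, with LPCAT3 at -0.72 and NR1H3 at -0.66.

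Of 8 genes of cholesterol uptake, storage and lysosomal export, 4 were higher and 3 lower in H2122 shNRF2 cells (of all genes, 48.8% were higher and 38.5% lower). SCARB1, a lipoprotein receptor, averaged 17.6 ± 1.5 FPKM in H2122 shNRF2 libraries and 104 ± 2.89 FPKM in H2122 shGFP libraries (SD, n = 3), a log2 fold change of -2.50 ± 0.0523 (SE, adjusted p = 1.52e-10). TMEM97, a sterol-binding membrane protein, fell by 2.04 in H2122 and 1.24 in H460 shNRF2 cells. In H460 shNRF2 cells 2 genes rose and 3 fell, with the lipoprotein receptor VLDLR at 1.32 ± 0.044 (SE, adjusted p = 5.68e-12). In shNR0B1 cells 2 rose and 5 fell, led by SOAT1, which esterifies cholesterol (-0.79), and TMEM97 (-0.78). In shSNW1 cells 2 rose and 6 fell, led by SOAT1 (-0.80) and VLDLR (-0.78).

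Of 16 other fatty acid genes, 14 were tested in H2122 and 15 in H460, and the counts higher and lower were 5 and 6 in H2122 shNRF2, 6 and 3 in H460 shNRF2, 6 and 6 in shNR0B1 and 6 and 5 in shSNW1 cells, beside shares over all genes of 48.8% and 38.5%, 40.9% and 39%, 33.1% and 36.8%, and 30.8% and 36.4% in the same order. ACSL1, an acyl-CoA synthetase, fell in H2122 shNRF2 cells (-1.45 ± 0.0418 SE, adjusted p = 1e-09) and rose in H460 shNRF2 cells (0.94 ± 0.0542 SE, adjusted p = 1.43e-09). SLC25A1, the mitochondrial citrate carrier, fell by 0.90 in H460 shNRF2 cells, and SCD5, a second stearoyl-CoA desaturase, rose by 0.87 in H2122 shNRF2 and fell by 0.43 in shSNW1 cells. In shNR0B1 cells ACSL4 (-0.75) and ACSL1 (-0.59) fell most, and in shSNW1 cells MLXIPL, a glucose-responsive transcription factor, rose (0.79).

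Of the non-sterol isoprenoid genes, 6 of 7 were tested: 3 rose and 3 fell in H2122 shNRF2, 2 and 3 in H460 shNRF2, 2 and 3 in shNR0B1 and 2 and 4 in shSNW1 cells, beside the same shares over all genes. PDSS1, a subunit of the synthase that makes the ubiquinone tail, fell by 1.73 in H2122 shNRF2, 0.98 in H460 shNRF2 and 0.62 in shNR0B1 cells. COQ2, which attaches that tail, fell by 1.26 in H460 shNRF2 and 0.90 in shSNW1 cells. GGPS1, which makes geranylgeranyl diphosphate, rose by 0.80 in H2122 shNRF2 cells, and PDSS2, the other subunit, rose by 0.51 in shNR0B1 and 0.72 in shSNW1 cells. In BPK29 against DMSO cells the largest called changes of these 5 lists were MLXIPL (0.50), COQ2 (-0.40), ACSL1 (0.33), STARD3 (0.30), ABCG1 (0.28) and TMEM97 (-0.28).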

How the data were processed

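Polyadenylated RNA of 27 H2122 and H460 libraries was sequenced, and the deposited values are FPKM (fragments scaled to gene length and library size), made by the authors. The submitters' processing notes name STAR, featureCounts, DESeq2, Bowtie2, HOMER and hg19; for versions, strand setting and the order of steps, nothing is given in the sources used here. The ChIP peak list was not used, since no hg19 annotation is at hand. No column of values was left without a sample (0 unmapped). SC5D is listed as SC5DL.

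Genes with at least 1 FPKM in 3 libraries were fitted with limma 3.58.1 (R 4.3.3, trend) on log2(FPKM + 1). The 6 H2122, the 12 H460 knockdown and the 9 compound libraries were fitted apart, and a fit of 12 libraries held the NRF2 hairpin and control groups of both lines. P-values were adjusted by Benjamini-Hochberg over all genes tested, and n is libraries. The code was tested on simulated data.

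Whole reads were recovered from the steps of the FPKM values for 99.9% of 13298 genes in the knockdown and 99.9% of 11673 in the compound set (within 0.02 reads of a whole number), and used for depth and for limma-voom. In the compound columns 54.4% of 16104 genes lay over 2 fold from the median ratio of the gene lengths implied by the knockdown columns. Ratios within a gene are not touched by this, but the pseudocount and the filter act at a different level there. Scaled reads are reads multiplied by 1 factor per library.

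The members and lists were chosen with earlier results of these data known. Named are all members, the targeted genes, and of each other list the called pair with the largest change per comparison, apart from 1 gene that is not reported here. Alternatives were the pseudocount, the filter, scaling, limma-voom, the libraries fitted, a replicate block and leaving out each library. Counting error weighs most on the members with the fewest reads, and its share in the spread of the other members was not measured. Promoters came from RefSeq (GRCh38.p14), read with Python 3.11.15; locus overlaps came from the same annotation.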

Additional observations from a re-analysis of the deposited data

Results flagged for a closer look

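The effect of NRF2 knockdown differed between H2122 and H460 for 29 of the 32 members, by the interaction term of limma at an adjusted p under 0.05. Of all 12798 genes tested, 71.6% passed the same test. Line and time (24 h in H2122, 72 h in H460) change together, so the difference cannot be given to either. Values are the log2 effect in H2122 minus that in H460.

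In the sterol branch the difference was 1.19 for FDFT1, 1.07 for MSMO1, 1.00 for IDI1, 0.91 for HSD17B7, 0.87 for ACAT2, 0.85 for FDPS, 0.63 for EBP, 0.61 for MVK, 0.53 for MVD, 0.47 for HMGCS1, 0.35 for NSDHL, 0.25 for SC5D and 0.21 for CYP51A1. It was negative for TM7SF2 (-0.33), SQLE (-0.34), DHCR7 (-0.63) and PMVK (-0.79).

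In the fatty acid branch it was 1.05 for ACSS2, 0.33 for SCD and 0.32 for FADS2, and negative for ACACA (-0.19), ACLY (-0.21), FADS1 (-0.48) and FASN (-0.71). Without H2122 shNRF2 replicate 3 the call of ACACA was lost (-0.16, adjusted p = 0.0529).

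Of the regulators and carriers, INSIG1 had 1.31, STARD4 1.08, INSIG2 0.80, SREBF2 0.39 and SREBF1 -0.17. The call of SREBF1 was lost without 5 of the 12 single libraries (-0.16 to -0.15). INSIG1 was far lower in H2122 than in H460 under the control hairpin (-3.34 on the log2 scale), as was FADS2 (-4.11), so their changes in H2122 rest on low values.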

How the results depend on the processing

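Over 5049 recomputed values of members, 4845 kept their side of the threshold, 62 passed it newly and 135 no longer passed. A further 7 changed sign, which was counted only where the value passed in the main fit or in the recomputed setting. Values that passed in neither were not checked for sign and are among the 4845. With the libraries rescaled to a common total, MVK (0.123) and NSDHL (0.0917) changed sign in H2122 shNRF2 against shGFP cells, ACLY (0.0437) in shNR0B1 against shGFP cells, and FDFT1 (0.0735) and CYP51A1 (0.12) between the lines. MVD in H2122 changed sign with median-ratio scaling (-0.0445) and with limma-voom (-0.0003). The cause was not tested. Rescaling to a common total also gave 3847 genes higher and 2203 lower for BPK29 against DMSO and 3444 higher for BPK29 against BPK9, and turned the fatty acid median of BPK9 against DMSO to 0.007 from -0.007.

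For BPK9 against DMSO, limma called 1 gene; 1 gene was higher with no filter on low values, rescaling to a common total gave 5 higher and 2 lower, 135 were higher and 114 lower with limma-voom, 2 were lower with only the groups compared in the fit, and leaving out 1 library gave 0 to 1 higher.

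The sterol median minus the fatty acid median moved beyond the spread between replicates with means in place of medians in H2122 (0.25), H460 shNRF2 (-0.11) and shSNW1 (-0.18), and to 0.0703 for shNRF2 against shSNW1, -0.43 for shNR0B1 against shSNW1, 0.36 for the interaction and -0.0109 for BPK29 against DMSO. Without ACAT2 it was 0.46 in H2122, -0.18 for shSNW1 and 0.73 between the lines. Leaving out single libraries, an alternative chosen after seeing the data, gave -0.27 to -0.20 for shSNW1, 0.63 to 0.69 between the lines, -0.0052 to 0.0433 for BPK29 against DMSO and -0.0364 to 0.03 for BPK29 against BPK9.

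Leaving out 1 library, 80 of 2478 member values no longer passed and 19 passed newly. In shNR0B1 against shGFP cells the call was lost for PMVK (without shGFP 1 or 2 or shNR0B1 1 or 2), ACLY (without shGFP 3 or shNR0B1 2 or 3) and SREBF2 (without shGFP 1 or 2 or shNR0B1 1 or 3), and in shSNW1 cells for STARD4 (without shGFP 1 or shSNW1 1). In shNRF2 against shSNW1 cells it was lost for ACSS2, ELOVL6 and SREBF2, in shNRF2 against shNR0B1 cells for MVD (without shNR0B1 1), and in BPK29 against BPK9 cells for MSMO1, PMVK and SCAP. No call of shNRF2 against shGFP in H460 was lost.

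Replicate numbers are shared between groups. The deviations of same-numbered libraries from their group means had correlations of -0.093 to 0.13. Noise in single libraries also lowers such correlations, so they cannot decide whether the numbers pair the libraries. With the replicate number as a block, 343 of 349 member values kept their call, 2 passed newly and 4 were lost, and H2122 had 5751 genes higher and 4548 lower, against 5715 and 4513 without it. The branch difference with the block was 0.42 in H2122. No block was fitted for H2122 shGFP against H460 shGFP, where the numbers lie within each line. For the interaction, the block gave 4710 genes higher and 4290 lower, against 4782 and 4386 without it. The comparison of peak windows around promoters was not run.

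Hairpins of 1 target are not told apart, line and time differ together, and n is 3 libraries a group. The depth of 16705879 to 24607395 reads leaves TM7SF2, with 56 reads in its lowest knockdown library, as the member with the fewest reads.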
